A study of Mus musculus with 6 samples.

Results

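The 9 genes described here are regulators of fat cell formation (Pparg, Cebpa, Cebpb and Cebpd) and genes of lipid uptake and storage (Fabp4, Lpl, Plin2, Cd36 and Adipoq), followed in mouse ear dermal fibroblasts on 3 substrates. They were chosen by name from a table of raw counts for 57010 Ensembl gene identifiers, and all 9 were found there. The fibroblasts were kept for 3 days on glass, which served as the control, or on polyacrylamide hydrogel of 1 kPa or of 20 kPa, and 2 libraries of polyadenylated RNA were sequenced per substrate, 6 in all. The series asks how the stiffness of the substrate acts on the epigenetic state of cells in neuronal reprogramming. The labels name no reprogramming factor and no adipogenic treatment for these libraries, and give no strain, age or genotype of the mice. They do not say whether the libraries of a substrate came from separate cultures or animals, so a p-value here speaks of the spread between the sequenced samples alone, and that spread may be technical.

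Fat cell formation is driven by a relay of transcription factors. Cebpb and Cebpd encode C/EBP-beta and C/EBP-delta, which respond early to hormonal signals and help to switch on Pparg, a nuclear receptor that binds fatty acid ligands, and Cebpa, which with Pparg maintains the fat cell program. Pparg pairs with a retinoid X receptor and acts on genes that take up and store fatty acids, among them the other 5 genes of the set. In skin, dermal fibroblast lineages include precursors of the fat cells that lie below the dermis.

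Library totals ran from 17669006 to 21350111 counts. Levels are given as CPM, a gene's counts relative to the total of its library after scaling with TMM factors, and 3 counts in a library correspond to 0.139 to 0.174 CPM. All 10 fibroblast markers checked were measured in all 6 libraries, with a summed level of 19600 to 20900 CPM on glass, 28300 to 29400 CPM on 1 kPa and 30900 to 32100 CPM on 20 kPa. The markers did not all move together. Mean levels on glass, 1 kPa and 20 kPa were 2990, 6400 and 8330 CPM for Col3a1, and 157, 3540 and 2910 CPM for Dcn. Vim went the other way, with 4190, 2190 and 2720 CPM. Replicate libraries of a substrate differed by more than counting error, most on glass, where the chi-square per degree of freedom was 39.7, against 10.5 on 1 kPa and 3.61 on 20 kPa.

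Most of the set stood higher on the gels than on glass. Pparg, Cebpa, Cebpb, Fabp4, Lpl, Plin2, Cd36 and Adipoq were higher on both gels than on glass, and Cebpd did not pass the test on either gel. The test was edgeR's quasi-likelihood test with Benjamini-Hochberg adjustment over 16093 genes and a threshold of 0.05. On 1 kPa against glass 8 of the 9 genes were higher and 0 were lower, where 23.0% of all genes tested were higher and 22.0% were lower. On 20 kPa against glass it was again 8 higher and 0 lower, beside 22.3% and 19.6% of all genes tested. Both comparisons use the same glass libraries. The median log2 fold change of the 9 genes was 1.64 on 1 kPa and 1.21 on 20 kPa against glass, in both cases the value of Lpl, and the median over all genes tested was 0.00 and 0.02.

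Between the gels the set divided. On 20 kPa against 1 kPa, Cebpb, Cebpd, Fabp4, Lpl and Cd36 were lower, Cebpa was higher, and Pparg, Plin2 and Adipoq did not pass. That is 1 gene higher and 5 lower, where 8.94% of all genes tested were higher and 9.92% were lower, and the median log2 fold change was -0.43 against 0.00 over all genes. With libraries scaled by their total counts, the calls of all genes between the gels went from 1438 higher and 1597 lower to 1949 higher and 1253 lower, and 2 of the 9 genes were higher. In the test over the 3 substrates at once, all 9 genes passed, as did 51.2% of all genes tested. All 9 also passed the filter on low counts, Adipoq and Cd36 through their gel libraries, so their difference from glass was partly set by that filter. In RNA from a whole culture, fewer cells that express a gene and less RNA per cell cannot be told apart.

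**Figure D1:**
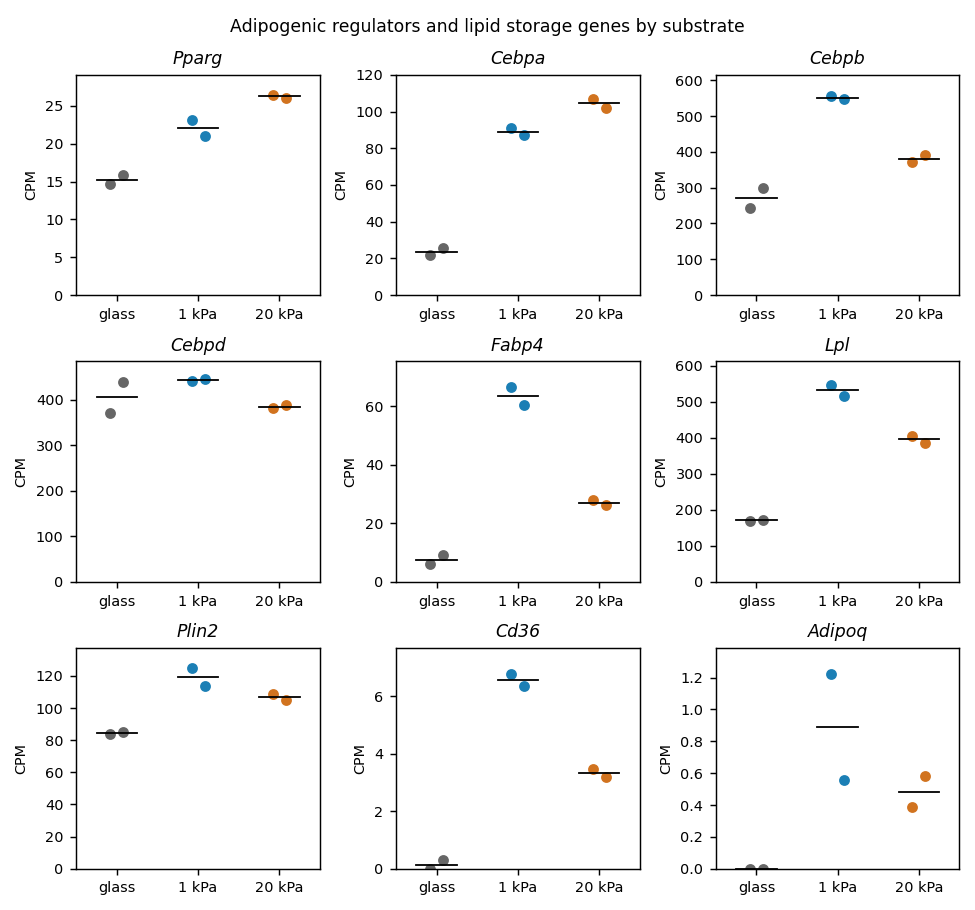
Levels of the 9 genes in CPM (linear axes from 0, a separate scale for each gene), with 1 point per library and a bar at the mean of the 2 libraries of glass, 1 kPa and 20 kPa. Fabp4, Lpl, Cebpb, Plin2 and Cd36 had their highest means on 1 kPa, Pparg and Cebpa on 20 kPa, and the glass libraries of Cebpd enclosed those of 20 kPa.

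Pparg (ENSMUSG00000000440.13, chromosome 6, 115360951 to 115490399, plus strand, GRCm38) was measured at 14.7 and 15.8 CPM on glass, 23.2 and 21 CPM on 1 kPa, and 26.4 and 26.1 CPM on 20 kPa. The 3 substrates did not overlap, with glass lowest and 20 kPa highest. Against glass, Pparg rose 1.46-fold on 1 kPa (log2 0.54, SE 0.10, edgeR adjusted p = 5e-05) and 1.72-fold on 20 kPa (log2 0.79, SE 0.10, edgeR adjusted p = 1e-07). Between the gels the log2 difference of 0.24 (SE 0.09) did not pass (edgeR adjusted p = 0.07). It did pass with total-count scaling, at 0.032, with only the 2 gels in the fit, at 0.044, and without glass replicate 1 or 2, at 0.045 and 0.047.

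Cebpa (ENSMUSG00000034957.11, chromosome 7, 35119293 to 35121928, plus strand) showed the widest change among the 4 regulators. It was measured at 21.6 and 25.5 CPM on glass, 90.9 and 87.0 CPM on 1 kPa, and 107 and 102 CPM on 20 kPa, again with no overlap and in the same order as Pparg. It rose 3.79-fold on 1 kPa (log2 1.92, SE 0.08, edgeR adjusted p = 1e-18) and 4.46-fold on 20 kPa (log2 2.16, SE 0.08, edgeR adjusted p = 5.9e-20). The step between the gels was far smaller, at 0.23 on the log2 scale (SE 0.07, edgeR adjusted p = 0.013). That call was lost with DESeq2 (adjusted p = 0.058), with limma-voom (0.053), and without 1 kPa replicate 2 (0.18), 20 kPa replicate 1 (0.16) or 20 kPa replicate 2 (0.056).

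Promoter letters are shown for these 2 regulators because their levels had the same order of substrates. The sequences are from RefSeq on GRCm38.p6, the 250 bases before an annotated start, written 5' to 3' along the gene's strand. RefSeq gives 3 starts for Pparg in the table used here, and the window shown is that of the most downstream start, chr6:115421816-115422065 (plus strand), with no base in an annotated exon. The Cebpa window is chr7:35119043-35119292 (plus strand), also with no base in an annotated exon. Capitals mark matches, on either strand, to TTGCNNAA, the core of C/EBP recognition sequences, or to the TATA box letters TATAAA. The other motif searched, the hexamer AGGTCA that nuclear receptors recognise, had no match in either window.
Pparg: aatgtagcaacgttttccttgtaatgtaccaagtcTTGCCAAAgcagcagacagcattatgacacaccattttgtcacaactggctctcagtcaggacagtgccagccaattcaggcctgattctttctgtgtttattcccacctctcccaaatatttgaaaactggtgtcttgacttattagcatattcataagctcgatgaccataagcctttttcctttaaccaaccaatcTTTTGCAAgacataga
Cebpa: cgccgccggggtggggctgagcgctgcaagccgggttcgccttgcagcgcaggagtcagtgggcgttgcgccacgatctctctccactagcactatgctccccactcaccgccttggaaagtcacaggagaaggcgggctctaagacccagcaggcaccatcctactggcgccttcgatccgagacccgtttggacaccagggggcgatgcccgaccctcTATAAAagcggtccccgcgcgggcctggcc
The Pparg window held 2 C/EBP core matches, 1 from 215 to 208 bases and 1 from 16 to 9 bases before the start. The Cebpa window held 1 TATAAA, from 30 to 25 bases before the start. Among all 32851 RefSeq windows of the same length, 9.56% held a TTGCNNAA, 12.4% a TATAAA and 14.0% an AGGTCA. The windows of the other 2 Pparg starts held 0 C/EBP core matches, so the window shown is the only 1 of the 3 with any. Each of those 2 held 1 AGGTCA, and 1 of them also held a TATAAA on the opposite strand, from 29 to 24 bases before the start. Counts per gene do not give which start was used. These are matches of letters, and binding was not measured. Of the other 7 genes, Cebpb, Plin2, Cd36 and Adipoq also had a window, and 0 of these held a C/EBP core match.

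Cebpb (ENSMUSG00000056501.4, chromosome 2, 167688915 to 167690418, plus strand) had another order of substrates. Its level was 244 and 300 CPM on glass, 555 and 547 CPM on 1 kPa, and 372 and 390 CPM on 20 kPa. The soft gel was highest, the stiffer gel lay between, and no libraries of different substrates overlapped. It rose 2.03-fold on 1 kPa (log2 1.02, SE 0.07, edgeR adjusted p = 1.8e-13) and 1.40-fold on 20 kPa (log2 0.49, SE 0.07, edgeR adjusted p = 7.6e-07), and was lower on 20 kPa than on 1 kPa (log2 -0.53, SE 0.07, edgeR adjusted p = 4.9e-07). Other annotated genes overlap 20.7% of its exonic bases, and the sources used here do not give whether strand was counted, so part of its counts could belong to them.

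Cebpd (ENSMUSG00000071637.6, chromosome 16, 15887286 to 15891031, plus strand) was the member with no call against glass. It was measured at 372 and 439 CPM on glass, 442 and 445 CPM on 1 kPa, and 382 and 388 CPM on 20 kPa. Glass replicate 1 lay below all 4 gel libraries and glass replicate 2 lay just below the 1 kPa libraries, so the spread on glass was as wide as the differences between substrates. The log2 fold change against glass was 0.13 on 1 kPa (SE 0.06, edgeR adjusted p = 0.095) and -0.07 on 20 kPa (SE 0.06, edgeR adjusted p = 0.39). Without glass replicate 2 the first became 0.25 with an adjusted p of 0.00027 and the second turned to 0.05, and without glass replicate 1 the second was -0.19 with an adjusted p of 0.0044. Between the gels Cebpd was lower on 20 kPa (log2 -0.20, SE 0.06, edgeR adjusted p = 0.023). The call was lost with total-count scaling (adjusted p = 0.10) and on leaving out 1 kPa replicate 1 (0.12), 1 kPa replicate 2 (0.17), 20 kPa replicate 1 (0.19) or 20 kPa replicate 2 (0.12). Other genes overlap 15.0% of its exonic bases.

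Fabp4 encodes the fatty acid binding protein that carries fatty acids inside fat cells. Fabp4 (ENSMUSG00000062515.4, chromosome 3, 10204088 to 10208576, minus strand) was measured at 6.10 and 9.04 CPM on glass, 66.8 and 60.4 CPM on 1 kPa, and 27.9 and 26.3 CPM on 20 kPa. Each substrate stood clear of the others, with the soft gel highest. It rose 8.54-fold on 1 kPa (log2 3.09, SE 0.11, edgeR adjusted p = 1.1e-19) and 3.64-fold on 20 kPa (log2 1.86, SE 0.12, edgeR adjusted p = 1.4e-13). On 20 kPa it was 2.35-fold lower than on 1 kPa (log2 -1.23, SE 0.09, edgeR adjusted p = 2.2e-11).

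Lpl encodes lipoprotein lipase, the secreted enzyme that frees fatty acids from the triglyceride of circulating lipoproteins. Lpl (ENSMUSG00000015568.17, chromosome 8, 68880491 to 68907448, plus strand) was measured at 170 and 173 CPM on glass, 548 and 515 CPM on 1 kPa, and 404 and 387 CPM on 20 kPa. The order was that of Fabp4, with no overlap. Lpl rose 3.11-fold on 1 kPa (log2 1.64, SE 0.06, edgeR adjusted p = 5.1e-20) and 2.31-fold on 20 kPa (log2 1.21, SE 0.06, edgeR adjusted p = 8.4e-17), and was 1.34-fold lower on 20 kPa than on 1 kPa (log2 -0.43, SE 0.06, edgeR adjusted p = 9.9e-07).

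Plin2 encodes perilipin 2, a coat protein of lipid droplets that many cell types make, not fat cells alone. Plin2 (ENSMUSG00000028494.13, chromosome 4, 86648386 to 86670060, minus strand) was measured at 83.7 and 85.3 CPM on glass, 125 and 114 CPM on 1 kPa, and 109 and 105 CPM on 20 kPa. The gels stood above glass and close to each other. Its rises were among the smallest of the set, 1.41-fold on 1 kPa (log2 0.50, SE 0.06, edgeR adjusted p = 1.3e-07) and 1.26-fold on 20 kPa (log2 0.34, SE 0.06, edgeR adjusted p = 6.6e-05). The log2 difference of -0.16 (SE 0.06) between the gels did not pass (edgeR adjusted p = 0.071), but did with only the 2 gels in the fit (0.026) and without glass replicate 1 or replicate 2 (0.028 each).

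Cd36 encodes a membrane receptor that takes up fatty acids in fat cells, muscle, macrophages and capillary endothelium. Cd36 (ENSMUSG00000002944.16, chromosome 5, 17781690 to 17888801, minus strand) was nearly undetected on glass, with 0 and 5 counts, against 139 and 114 counts on 1 kPa and 71 and 66 counts on 20 kPa. These counts were 0 and 0.29 CPM on glass, 6.77 and 6.38 CPM on 1 kPa, and 3.46 and 3.19 CPM on 20 kPa, with no overlap between substrates. The ratio of summed counts to glass, scaled by library size, was 51.3 on 1 kPa (exact 95% interval 21.7 to 159) and 25.9 on 20 kPa (10.8 to 80.9), intervals that cover counting error only. The edgeR adjusted p was 2.2e-12 and 2.3e-09. On 20 kPa Cd36 was 1.98-fold lower than on 1 kPa (log2 -0.98, SE 0.23, edgeR adjusted p = 0.0018). This call did not hold with limma-voom (adjusted p = 0.44) and without 20 kPa replicate 2 (0.051).

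The Cd36 promoter window is shown because Cd36 had the largest ratio to glass that could be estimated in the set. It precedes a RefSeq start inside the gene, chr5:17835897-17836146 (minus strand, GRCm38.p6), with no base in an annotated exon, and its 1 match is in capitals, TGACCT, the reverse complement of AGGTCA, from 228 to 223 bases before the start.
Cd36: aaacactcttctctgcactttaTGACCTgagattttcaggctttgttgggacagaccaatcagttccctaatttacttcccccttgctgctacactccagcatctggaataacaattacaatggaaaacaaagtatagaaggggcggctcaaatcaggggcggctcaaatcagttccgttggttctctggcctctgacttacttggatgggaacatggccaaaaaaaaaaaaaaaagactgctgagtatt

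Adipoq encodes adiponectin, a hormone secreted by mature fat cells. Adipoq (ENSMUSG00000022878.6, chromosome 16, 23146536 to 23158028, plus strand) had 0 counts in both glass libraries, 25 and 10 counts on 1 kPa, and 8 and 12 counts on 20 kPa. These are low counts, at 1.22 and 0.56 CPM on 1 kPa and 0.389 and 0.58 CPM on 20 kPa, and the gels overlapped. Taken against 3 counts over the glass group, Adipoq was at least 11.8-fold higher on 1 kPa and at least 6.29-fold higher on 20 kPa, with edgeR adjusted p = 2.1e-05 and 0.00062. Between the gels the log2 difference of -0.89 (SE 0.52) did not pass (edgeR adjusted p = 0.26).

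**Figure D2:**
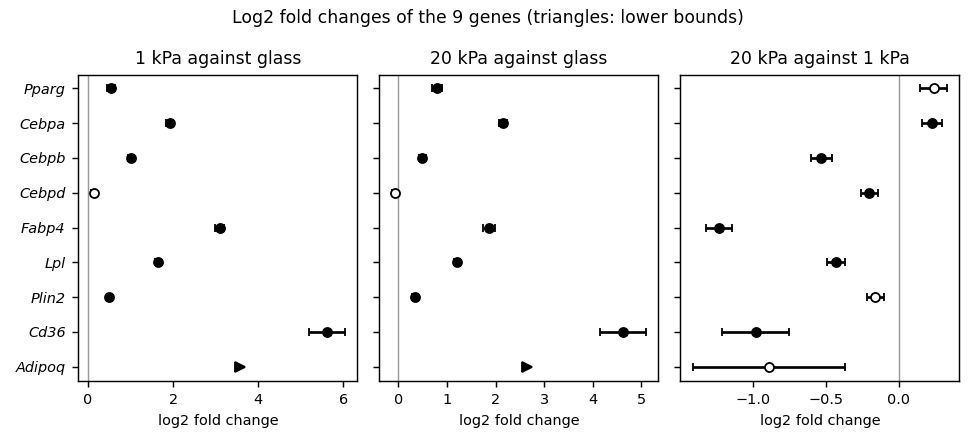
Log2 fold changes of the 9 genes in the 3 comparisons (x axis, with a scale of its own in each panel), with bars of 1 SE, filled points where the edgeR adjusted p was under 0.05, and triangles at the lower bound of Adipoq, which had 0 counts on glass. On 20 kPa against 1 kPa, Pparg and Cebpa lay to the right of 0 at 0.24 and 0.23, and the other 7 genes lay to the left.

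Levels were also set per kilobase of annotated exon, with all transcripts of a gene joined, as a rough comparison between genes. The order of mean levels on glass was Cebpb (181 CPM per kb), Cebpd (108), Plin2 (24.1), Lpl (16.3), Cebpa (8.95), Pparg (5.16), Fabp4 (1.69), Cd36 (0.0403) and Adipoq (0). On 1 kPa it was Cebpb (366 CPM per kb), Cebpd (118), Lpl (50.7), Plin2 (33.9), Cebpa (33.7), Fabp4 (14.2), Pparg (7.49), Cd36 (1.83) and Adipoq (0.643). On 20 kPa Cebpa, at 39.7 CPM per kb, stood beside Lpl at 37.8 and above Plin2 at 30.4, and Fabp4, at 6.04, stood below Pparg at 8.88. Cebpb and Cebpd thus led on all 3 substrates, and Adipoq was last on all 3. On 1 kPa, Plin2 and Cebpa differed by less than the spread of their libraries. A joined exon length can exceed that of the transcript made, which lowers the level per kilobase. For Fabp4 it is 4489 bases, the whole span of the gene with no base left as intron. The levels of Fabp4 per kilobase may therefore be too low, and its places in these orders, also against Pparg, are uncertain.

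**Figure D3:**
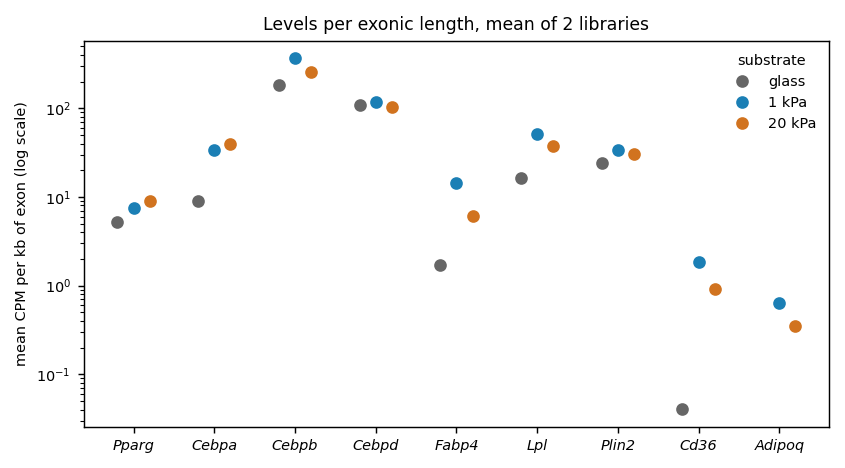
Mean CPM per kilobase of exon of the 9 genes on glass, 1 kPa and 20 kPa (log axis, 1 point per substrate, mean of 2 libraries, no error shown). Adipoq has no glass point because both libraries had 0 counts, and the early factors Cebpb and Cebpd stood above 100 on every substrate.

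Other genes of the pathway were counted by list, and each count stands against the share of all genes tested: 23.0% higher and 22.0% lower on 1 kPa against glass, 22.3% and 19.6% on 20 kPa against glass, and 8.94% and 9.92% on 20 kPa against 1 kPa. No list was tested as a set. Activators of fat cell formation come first. The 18 listed genes all passed the filter, and 10 were higher and 2 lower on each gel against glass, with a median log2 fold change of 0.28 on 1 kPa and 0.27 on 20 kPa. Zfp423, a zinc finger protein that marks committed fat cell precursors, was measured at 3.74 and 3.59 CPM on glass, 12.9 and 14.4 CPM on 1 kPa, and 22.3 and 16.8 CPM on 20 kPa (log2 1.89, SE 0.16, edgeR adjusted p = 4.9e-11, and log2 2.41, SE 0.15, adjusted p = 7.7e-14). Ppargc1a, a coactivator that works with Pparg, rose as well against glass, with log2 fold changes of 1.5 and 2.1 from a low level of 1.43 and 1.56 CPM. Stat5a rose by log2 0.83 on 1 kPa and 0.54 on 20 kPa. Klf4, listed for its early role before Cebpb, went the other way: it was measured at 145 and 129 CPM on glass, 81.7 and 79.7 CPM on 1 kPa, and 54.5 and 55.3 CPM on 20 kPa, and fell by 0.76 and 1.32 on the log2 scale (edgeR adjusted p = 4e-11 and 2.8e-16). Between the gels 3 of the 18 were higher and 4 lower, and the 3 became 1 with limma-voom and without 1 kPa replicate 1 or 20 kPa replicate 1.

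Of 14 listed repressors 13 were tested. On 1 kPa against glass 2 were higher and 5 lower, and on 20 kPa 2 were higher and 6 lower, with medians of -0.18 and -0.12. The 6 became 3 without 20 kPa replicate 1. Sox9 was measured at 284 and 286 CPM on glass, 163 and 165 CPM on 1 kPa, and 251 and 251 CPM on 20 kPa, so its lowest level was on the soft gel. It fell on 1 kPa (log2 -0.80, SE 0.06, edgeR adjusted p = 5e-13) and was higher on 20 kPa than on 1 kPa (log2 0.61, SE 0.06, edgeR adjusted p = 8.6e-10). Zfp521, a zinc finger antagonist of Zfp423, had the same shape, with a log2 fold change of -0.59 on 1 kPa against glass and 0.36 on 20 kPa against 1 kPa. The 2 that rose were Dlk1, a surface protein of preadipocytes, and Nr2f2, an orphan nuclear receptor. Dlk1 was measured at 11.6 and 12.1 CPM on glass, 17.4 and 16.7 CPM on 1 kPa, and 23.1 and 22.7 CPM on 20 kPa.

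Among relatives of Pparg and the C/EBP family, 7 of 8 listed genes were tested. On 1 kPa 3 were higher and 1 lower against glass, and on 20 kPa 2 were higher and 1 lower. The 1 lower on 1 kPa, Trib1, became 0 with DESeq2 and without 1 kPa replicate 1, 1 kPa replicate 2 or glass replicate 1, and the 2 higher on 20 kPa became 1 without 20 kPa replicate 2 or glass replicate 2. Ppard, the widely expressed PPAR, was higher on 1 kPa than on glass (log2 0.34, SE 0.07, edgeR adjusted p = 0.0001). Its level on 20 kPa, 81.7 and 81.1 CPM, lay at or near the lower glass library, 80.9 CPM, with 89.0 CPM in the other. Trib1, which promotes the degradation of C/EBP-alpha protein, was measured at 45.2 and 44.4 CPM on glass and 24.2 and 25.9 CPM on 20 kPa, a fall of 0.84 on the log2 scale (SE 0.08, edgeR adjusted p = 7e-10). Ppara was near the limit of detection, between 0.521 and 1.07 CPM, with no call.

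Of 12 listed lipid droplet genes other than Plin2, 7 were tested, with 4 higher and 1 lower on 1 kPa against glass and 2 higher and 2 lower on 20 kPa. Plin1, the perilipin of mature fat cells, was at 0.0924 and 0.29 CPM on glass, 14.2 and 12.9 CPM on 1 kPa, and 4.77 and 3.63 CPM on 20 kPa. The ratio of its summed counts to glass, scaled by library size, was 75.6 on 1 kPa (exact 95% interval 36.4 to 189) and 23.3 on 20 kPa (11.1 to 58.9), with edgeR adjusted p = 1.3e-16 and 3.8e-11. With 2 and 5 counts on glass, Plin1 passed the filter through its gel libraries, so its difference from glass was partly set by that filter. It was lower on 20 kPa than on 1 kPa by 1.69 (log2 -1.69, SE 0.17, edgeR adjusted p = 5.4e-09). This is the order of substrates seen for Cd36 and Fabp4. G0s2, an inhibitor of the main triglyceride lipase, had the order of Pparg instead, with 12.2 and 17.2 CPM on glass, 43.4 and 37.7 CPM on 1 kPa, and 54.3 and 52.8 CPM on 20 kPa. Plin3, a perilipin of small droplets made by most cells, fell on both gels, by 0.55 and 0.26 on the log2 scale. Cidec, which joins droplets in fat cells, was below the filter, with 0 counts on glass, 4 and 5 counts on 1 kPa, and 1 count in each library of 20 kPa.

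Of 12 listed genes of triglyceride synthesis 11 were tested, with 5 higher and 1 lower on 1 kPa against glass, and 4 higher and 2 lower on 20 kPa. On 20 kPa the 4 became 2 with DESeq2 and without 20 kPa replicate 2 or glass replicate 2, and the 2 lower became 1 with total counts and without 20 kPa replicate 1, 20 kPa replicate 2 or glass replicate 1. Dgat2, which with Dgat1 adds the last fatty acid to triglyceride, was measured at 12.1 and 9.85 CPM on glass, 51.8 and 50.3 CPM on 1 kPa, and 14.1 and 12.3 CPM on 20 kPa. The 1 kPa libraries stood alone at the top. Dgat2 rose on 1 kPa (log2 2.21, SE 0.10, edgeR adjusted p = 2.3e-17), had a log2 difference of 0.25 on 20 kPa (edgeR adjusted p = 0.084, and 0.019 without glass replicate 1) and was lower on 20 kPa than on 1 kPa (log2 -1.95, SE 0.10, edgeR adjusted p = 1.3e-15). Dgat1 rose by log2 1.18 on 1 kPa and 0.70 on 20 kPa. Lpin1, a phosphatidate phosphatase, fell on both gels, by 0.87 and 0.42 on the log2 scale.

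Of 8 listed lipolysis genes 7 were tested, with 4 higher and 2 lower on 1 kPa against glass, and 3 higher and 2 lower on 20 kPa. The 2 lower on 1 kPa became 1 with DESeq2 and without 1 kPa replicate 1 or glass replicate 1. Lipe, the hormone-sensitive lipase, rose by log2 0.94 on 1 kPa (SE 0.11, edgeR adjusted p = 3.7e-08) and 0.45 on 20 kPa. Pnpla2, the main triglyceride lipase, fell on 1 kPa (log2 -0.35, SE 0.11, edgeR adjusted p = 0.01) and on 20 kPa (log2 -0.64, SE 0.11, edgeR adjusted p = 2.4e-05). Its difference between the gels did not pass (log2 -0.29, SE 0.12, edgeR adjusted p = 0.08).

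Of 17 listed genes that handle lipoprotein lipase or take up fatty acids 15 were tested, with 9 higher and 3 lower on 1 kPa against glass, 4 higher and 3 lower on 20 kPa, and 1 higher and 9 lower on 20 kPa against 1 kPa. Between the gels the 1 became 0 with DESeq2, with no filter, with a replicate block and without any 1 of the 4 gel libraries, and the 9 became 5 without 1 kPa replicate 1. Angptl4, a secreted inhibitor of lipoprotein lipase and itself a known Pparg target, was measured at 63.1 and 64.4 CPM on glass, 346 and 337 CPM on 1 kPa, and 149 and 146 CPM on 20 kPa. It rose with log2 fold changes of 2.42 (SE 0.06, edgeR adjusted p = 5.2e-24) and 1.21 (SE 0.06, edgeR adjusted p = 1.9e-16), so the enzyme and its inhibitor were both highest on the soft gel. Slc27a1, a fatty acid transporter, rose by log2 1.12 and 0.84. Fabp5, the family member of skin and immune cells, was lower on the gels, where Fabp4 was higher: it was measured at 97.7 and 117 CPM on glass, 65.8 and 55.1 CPM on 1 kPa, and 42.7 and 47.5 CPM on 20 kPa, and fell by 0.82 and 1.25 on the log2 scale (edgeR adjusted p = 1.2e-09 and 2.4e-13). Gpihbp1, the endothelial anchor of lipoprotein lipase, had at most 5 counts in a library.

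Of the fatty acid oxidation genes all 14 were tested, with 3 higher and 3 lower on 1 kPa against glass, 4 higher and 2 lower on 20 kPa, and 3 higher and 0 lower on 20 kPa against 1 kPa. The counts on 1 kPa are near the shares of all genes tested, and the 3 higher there became 1 without glass replicate 2. Ucp2, a mitochondrial carrier, was at 5.50 CPM in both glass libraries, 15.1 and 13.0 CPM on 1 kPa, and 25.5 and 24.2 CPM on 20 kPa, with log2 fold changes of 1.36 and 2.17 against glass (edgeR adjusted p = 8.9e-10 and 5.1e-15). Hadha and Cpt1a, of the mitochondrial pathway itself, fell on both gels, by 0.33 and 0.32 on 1 kPa and 0.26 and 0.30 on 20 kPa, on the log2 scale.

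Of 14 listed adipokines and other genes of mature fat cells 9 were below the filter on low counts and 5 were tested, with 4 higher and 0 lower on 1 kPa against glass and 2 higher and 0 lower on 20 kPa. Plin1, Slc2a4 and Aqp7, with at most 5 counts in a glass library, passed the filter through their gel libraries, so the direction of these counts was partly set by that filter. With a stricter filter the 4 became 2. Rbp4, the retinol carrier that fat tissue and liver secrete, was at 1.02 and 0.811 CPM on glass, 35.8 and 33.4 CPM on 1 kPa, and 24.6 and 24.3 CPM on 20 kPa (log2 5.22, SE 0.16, edgeR adjusted p = 8.7e-22, and log2 4.72, SE 0.17, adjusted p = 3.4e-20). Lep and Ucp1, for leptin and the uncoupling protein of brown fat, had 0 counts in all 6 libraries. Cfd, for adipsin, had 0 counts on glass, 8 counts in each 1 kPa library, and 4 and 2 counts on 20 kPa. Slc2a4, for the insulin-responsive glucose transporter, was higher on 1 kPa than on glass (edgeR adjusted p = 0.0069), at 0.73 and 1.29 CPM against 0.231 and 0.174 CPM, a call lost without 1 kPa replicate 2 (adjusted p = 0.085).

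**Figure D4:**
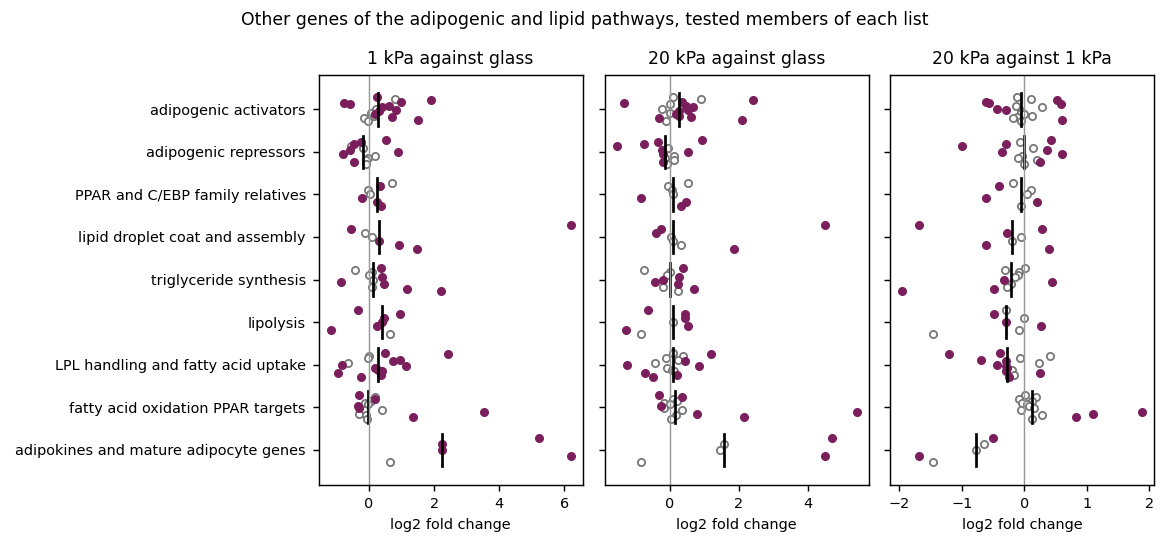
Log2 fold changes of the tested genes of the 9 listed groups in the 3 comparisons (x axis), 1 point per gene, filled where the edgeR adjusted p was under 0.05, with a bar at the median of each group. Plin1 and Rbp4 lay at the far right against glass, and on 20 kPa against 1 kPa the lowest point was Dgat2 at -1.95.

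Markers of other cells that express these genes were summed over the same libraries. The 12 mature fat cell markers other than the 9 genes summed to 55.1 to 59.8 CPM on glass, 67.3 to 70.3 CPM on 1 kPa and 46.4 to 51.6 CPM on 20 kPa, with Plin4 alone at 58.6 and 53.8 CPM on glass, and with Lep at 0 throughout. Plin4 was at 44.0 and 41.5 CPM on 20 kPa, so the lower sum there was mostly its fall (log2 -0.40, SE 0.07). Of the 5 fat cell markers tested, Plin1, Slc2a4 and Aqp7 were higher on 1 kPa against glass and 0 were lower. On 20 kPa Plin1 was higher and Plin4 lower. As said above, Plin1, Slc2a4 and Aqp7 passed the filter through their gel libraries. The 12 macrophage and monocyte markers summed to 16.5 to 18.5 CPM on glass, 57.7 to 57.8 CPM on 1 kPa and 26.0 to 29.2 CPM on 20 kPa, the order of substrates seen for Fabp4, Lpl and Cd36. Most of that change was Cd14, with 121 and 85 counts on glass, 848 and 781 counts on 1 kPa, and 310 and 270 counts on 20 kPa, while Ptprc, the common leukocyte antigen, had at most 5 counts and Itgam at most 1 count in a library. Fcgr1 was at 0 on glass. On 1 kPa against glass 3 of the 6 tested, Cd14, Lyz2 and Mrc1, were higher and 0 were lower. On 20 kPa Cd14 and Lyz2 were higher and Csf1r was lower. These counts, and those of the other markers here, stand beside the shares of all genes tested. Against glass the shares were 23.0% higher and 22.0% lower on 1 kPa, and 22.3% and 19.6% on 20 kPa. Mrc1 had 6 and 11 counts on glass and 26 and 29 counts on 1 kPa. The part of macrophages in the levels of Fabp4, Lpl and Cd36 was not tested. The 11 endothelial markers summed to 64.8 to 66.8 CPM on glass, 67.8 to 74.1 CPM on 1 kPa and at least 95.6 CPM on 20 kPa, with Gpihbp1 at 0 on glass. Of the 10 tested, 6 were higher and 1 lower on 1 kPa against glass, and 8 were higher and 0 lower on 20 kPa. Much of the endothelial sum was Erg, at 46.5 and 42.8 CPM on glass, 30.7 and 29.3 CPM on 1 kPa, and 61.8 and 57.0 CPM on 20 kPa. Erg was the 1 lower on 1 kPa, where Pecam1, Cdh5, Tie1, Emcn, Cldn5 and Egfl7 were higher. The sum on 1 kPa thus joins a fall of Erg with rises of these 6. Pecam1 rose 3.37-fold on 1 kPa and 2.82-fold on 20 kPa. The part of endothelial cells in the levels of Cd36 and Fabp4 was not tested. The 9 skeletal muscle markers summed to 15.9 to 17.9 CPM on glass, 38.3 to 39.6 CPM on 1 kPa and 21.6 to 25.7 CPM on 20 kPa, with Pax7 at 0 throughout. Of the 6 tested, Myog, Myh3, Myh8 and Des were higher on 1 kPa against glass, the first 3 also on 20 kPa, and 0 were lower. Myh3 was at 0.139 and 0.174 CPM on glass, 6.96 and 5.93 CPM on 1 kPa, and 4.33 and 3.97 CPM on 20 kPa. Myog, Myh3 and Myh8 had at most 4 counts in a glass library and passed the filter through their gel libraries. The part of muscle cells in the levels of Cd36 and Lpl was not tested either. Sebocyte markers summed to 71.6 to 95.3 CPM on glass, 106 to 123 CPM on 1 kPa and 101 to 102 CPM on 20 kPa, nearly all of it Mgst1, with 70.8 and 94.6 CPM on glass, and with Awat1 and Elovl3 at 0 throughout. Keratinocyte markers summed to 18.7 to 23.7 CPM on glass, 26.5 to 28.4 CPM on 1 kPa and 27.0 to 27.7 CPM on 20 kPa. The higher sum on the gels was that of Trp63, with 9.79 and 12.4 CPM on glass and 22.3 and 22.6 CPM on 20 kPa, while 3 of the 5 tested keratinocyte markers, Krt5, Krt14 and Dsp, fell on both gels, with a median log2 fold change over the 5 of -1.87 on 1 kPa and -1.48 on 20 kPa.

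The likeness of patterns was described by Pearson's r of log2 CPM over the 6 libraries, which fall into 3 substrates and so carry little more than the order and spacing of 3 means. Among the 9 genes, Pparg and Cebpa had an r of 0.97, Fabp4 and Cebpb 0.99, Lpl and Plin2 0.99, and Fabp4 and Cd36 0.97, while Cebpd and Pparg had -0.05. Outside the set, the closest patterns to Pparg were those of Dpep1 (0.9989), Tspan3 (0.9981) and Lgr4 (0.9965), and 439 of 10943 genes with a mean of at least 5 CPM, or 4.01%, reached 0.95. For Cebpa the closest were Hacd3, Anpep and Scin, and 7.0% reached 0.95. Fabp4 was closest to Jak2, Nrn1 and Lrig2, with 5.02% at 0.95 or above, and Lpl to Col24a1, Egfr and Pde1a, with 7.49%. Cebpd, whose level moved least, had 3 such genes, Syt17, Tspo and Spsb1.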

How the data were processed

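RNA-seq counts of 6 libraries, 2 per substrate, were analysed, with groups and replicate numbers from the sample titles. The deposited values are whole-number raw counts per gene made by the authors; Trim Galore, cutadapt, STAR 2.7.10b, featureCounts and mm10 are named per the submitters' processing notes, and the sources used here give no annotation, strand setting or other settings. Symbols and positions came from GENCODE M21 (GRCm38), which matched 91.3% of the 57010 identifiers. Counts were kept by filterByExpr, scaled with TMM factors and tested in 1 quasi-likelihood fit over all 6 libraries with substrate as its 1 term, which left 3 residual degrees of freedom (edgeR 4.0.16, R 4.3.3). Every adjusted p of a gene in the text is from this fit, with Benjamini-Hochberg adjustment over all 16093 genes, unless another tool or setting is named. SE is the absolute log2 fold change over the root of the F statistic; the common biological coefficient of variation was 5%. For genes with few counts, ratios of summed counts have exact 95% counting intervals. No exact permutation test was run, since 2 libraries against 2 allow no p under 0.333.

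The 9 genes and the lists were chosen with earlier results of these data known. From each list the text names up to 5 genes with the smallest p over the 3 substrates, plus genes below the filter by their counts; markers of other cells that are named singly, and the pairs of genes whose r is given, were chosen after their values were seen. A gene that this rule covers is not reported here. Up to 3 genes of like pattern are named per member. Same-numbered libraries did not deviate together (r of -0.02 to -0.03), so the numbers were not taken as pairs. The scripts were tested on simulated data. Alternatives were DESeq2 1.42.0, limma-voom (limma 3.58.1), total counts, no filter, a stricter filter, 2-group fits, a replicate block and leaving out each library.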

Additional observations from a re-analysis of the deposited data

How the results depend on the processing

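Of 347 alternative values for the 9 genes, 325 kept their direction and side of the threshold, 12 lost the call, 9 gained it and 1 reversed. The 8 genes higher on 1 kPa or 20 kPa than on glass kept that call under every alternative run, except that a stricter filter on a mean of 1 CPM left out Adipoq. Between the gels the results were less firm: 3035 genes were called, 2022 with DESeq2 and 1727 (without 1 kPa replicate 2) to 3758 on leaving out a library. The 1 member higher on 20 kPa than on 1 kPa became 0 with DESeq2, 0 with limma-voom, 2 with only the 2 gels in the fit, 2 with total counts and 0 to 2 without a library, and the 5 lower members became 3 to 6, with 3 without 20 kPa replicate 2. On 20 kPa against glass the members lower went from 0 to between 0 and 1, the 1 being Cebpd without glass replicate 1. A replicate block, for which the numbers gave no ground, called 7032, 6526 and 2862 genes in place of 7238, 6732 and 3035, and changed the call of none of the 9 genes. For log2 fold changes that changed sign under any alternative run, the ranges on leaving out a library were as follows. On 20 kPa against glass they were -0.19 to 0.05 for Cebpd, -0.13 to 0.01 for Ppard and -0.08 to 2.35 for Slc2a4. On 20 kPa against 1 kPa they were -0.17 to 0.05 for Trib3, -0.61 to 0.15 for Ppara, -0.07 to 0.09 for Gpam, -1.32 to 0.21 for Aqp7 and -2.33 to 0.10 for Slc2a4. For Cpt1a the range was 0.00 to 0.02, which as rounded shows no change of sign. The cause was not tested. Of 702 alternative counts for the lists 657 stayed within 1.5 times the reported count. The 2 libraries per group limit precision throughout, and on glass depth limits Cd36, Adipoq and Plin1.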
